A study of Mus musculus with 24 samples.

Results

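The 32 genes described here make up a list of the p53 pathway in the mouse, namely Trp53 itself, its regulators and genes that p53 is known to activate. All 32 were found by symbol among the 52636 genes of the deposited table. Gene identifiers and coordinates were taken from the GRCm38 annotation, and levels are given as normalized counts, the deposited gene counts after scaling per library and rounding to whole numbers. Of the 32 genes, 6 sense damage or control the p53 protein, 7 act in the cell cycle, 12 in cell death, 3 in DNA repair and 4 in signalling or metabolism.

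RNA was sequenced from 24 samples of MC38, a colon carcinoma cell line from C57BL/6 mice, with 3 samples from each of 8 lines. MC38-WT was unmodified. MC38-MOCK#1 received an empty CRISPR/Cas9 construct, MC38-COSMC KO (the MC38-Tn high line of the study) carried a Cas9 knockout of C1galt1c1, which encodes the chaperone COSMC of the enzyme that extends O-glycans, MC38-CMAS KO a knockout of Cmas, which activates sialic acid, and MC38-DKO targeted both genes. MC38-MOCK#2 was the control of the CRISPR-dCas-VPR activation system, with no target gene, and the lines labelled MC38-FUT4 and MC38-FUT9 used that system on the fucosyltransferase genes Fut4 and Fut9. MC38-WT was the only line grown without puromycin. The MC38-COSMC KO cells were selected as a bulk, rather than as single clones, by repeated sorting for high Tn antigen. Whether MC38-MOCK#1 was sorted in the same way is not clear from the paper. How the other lines were selected is not given in the sources used here. Samples 1, 2 and 3 were passages 4, 5 and 6 of MC38-MOCK#1, MC38-COSMC KO, MC38-CMAS KO and MC38-DKO. They were passages 6, 7 and 8 of MC38-MOCK#2 and MC38-FUT9, passages 7, 8 and 9 of MC38-WT, and passages 7, 8 and 7 of MC38-FUT4. Nothing in the sources used here says that the samples of a line are separate cultures beyond these passages, harvested at independent times, so p-values measure only the spread between these samples, which may be technical. MC38-MOCK#2 shared passage 6 alone with MC38-MOCK#1, and MC38-WT shared no passage with it, so these comparisons were also fitted with the passage number as a term. With so little shared, such a fit separates passage from line only weakly.

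The labels were compared with the RNA first. Cmas lay between 93 and 142 normalized counts in MC38-CMAS KO and MC38-DKO and at 272 or more in the other lines. C1galt1c1 counted 145, 163 and 124 in MC38-COSMC KO against 242, 220 and 251 in MC38-MOCK#1, but MC38-DKO (206, 166 and 175) overlapped with MC38-CMAS KO (215, 181 and 152), so RNA does not show the second target of MC38-DKO. Fut9 reached 955, 641 and 676 in MC38-FUT9. The line labelled FUT4 went against its label, since Fut4 counted 1, 0 and 1 in its samples while Fut9 counted 209, 171 and 186, against at most 7 in the lines not targeted at Fut9. Results that use it name it as the line labelled FUT4, and counts of genes called over the 8 lines are also given without it. The colon carcinoma label was compared with marker genes: the summed normalized counts of 6 epithelial markers (Epcam, Cdh1, Cldn7, Krt8, Krt18, Krt19) ranged from 0 to 11 per sample and those of 4 intestinal markers from 0 to 12, whereas mesenchymal markers led by Vim summed to 32961 to 50937. Leukocyte markers summed to 3 to 21 and endothelial markers to 0 to 19. The 24 totals of normalized counts ranged from 10911849 to 12263307 per sample.

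The p53 protein is a transcription factor that is kept scarce by the ubiquitin ligase Mdm2 and its partner Mdm4. Damage kinases such as Atm, or the Arf protein encoded at Cdkn2a, release it from them. It then binds response elements near its target genes, whose products stop the cell cycle, repair DNA or start apoptosis, and it also activates Mdm2 and Ppm1d, which act back on it. Because p53 is regulated mainly as a protein, the level of its own mRNA is not a measure of its activity. MC38 cells are known to carry changes in the Trp53 coding sequence, which counts per gene cannot show.

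A p53 response element is built from decamers, pairs of which can be separated by a short spacer. The promoter windows of RefSeq (GRCm38.p6, from 250 bases before to 50 bases after a start site) were searched for the p53 decamer consensus. The consensus is its own reverse complement, so one search covers both strands. Of the 32 genes, 26 had a window, and 9 of these (34.6%) held at least 1 decamer, against 9.55% of the 27025 genes with a window. A pair of decamers separated by at most 13 bases was found in 1 of the 26 (3.85%) and in 20 of all genes (0.074%). What these genes share is a match to the consensus, and the bases of the decamers printed here differ from gene to gene. The stretches of 7 members that lie upstream of a start site and outside exons are printed 5′ to 3′ on the strand of the gene, with decamers in capitals.
Cdkn1a, chr17:29090891-29090952, plus strand: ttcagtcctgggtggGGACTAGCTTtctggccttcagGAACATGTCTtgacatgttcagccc
Mdm2, chr10:117710920-117710959, minus strand: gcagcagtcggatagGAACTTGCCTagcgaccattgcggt
Ccng1, chr11:40755447-40755486, minus strand: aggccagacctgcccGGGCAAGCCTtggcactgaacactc
Bax, chr7:45467075-45467114, minus strand: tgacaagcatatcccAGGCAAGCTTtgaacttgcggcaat
Ppm1d, chr11:85311107-85311146, plus strand: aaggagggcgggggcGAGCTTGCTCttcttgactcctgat
Trp53, chr11:69580269-69580308, plus strand: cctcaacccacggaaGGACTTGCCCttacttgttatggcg
Polk, chr13:96519394-96519433, minus strand: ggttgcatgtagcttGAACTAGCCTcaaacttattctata
The paired decamers of Cdkn1a, the gene of the cell cycle inhibitor p21, lay 73 to 42 bases before 1 of its 2 start sites, and the window of its other start site held no decamer. Only exact matches were marked. The bases directly after the second Cdkn1a decamer miss the consensus only at their first base and so stand in lower case. Which of these stretches p53 binds was not tested. The Polk stretch lies inside the Polk gene, before a start site within it, and the window of the outer Polk start site held none. The decamer of Mdm2 lay 186 to 177 bases before its own. A match is a stretch of letters and not a bound site. Members with and without a decamer were set side by side in the RNA: 8 of 9 with one and 12 of 17 without one differed among the 8 lines by the test described below. That test called 40.8% of all genes tested and 67.7% of those with a mean of at least 10 normalized counts. The median log2 fold changes in MC38-FUT9 against MC38-MOCK#2 were 0.15 with a decamer, 0.19 without one and 0.01 for all genes tested.

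Per kilobase of exon, the scale on which genes can be compared, the 32 levels spanned a wide range. Bax, which permeabilises the mitochondrial membrane, and Trp53 stood first and second, with medians of the 8 line means of 611 and 589 normalized counts per kb. Ccng1 (227), Cdkn1a (205), Plk2 (205) and Plk3 (186) followed. At the other end were Ephx1 (8.29), Trp53inp1 (3.14) and Fas (2.04), the gene of the death receptor CD95, which never exceeded 11 normalized counts. Pmaip1, the gene of the BH3-only protein Noxa, was at 0 in 22 of 24 samples and counted 1 in samples 1 and 3 of the line labelled FUT4, so no level of it could be read at this depth.

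**Figure D1:**
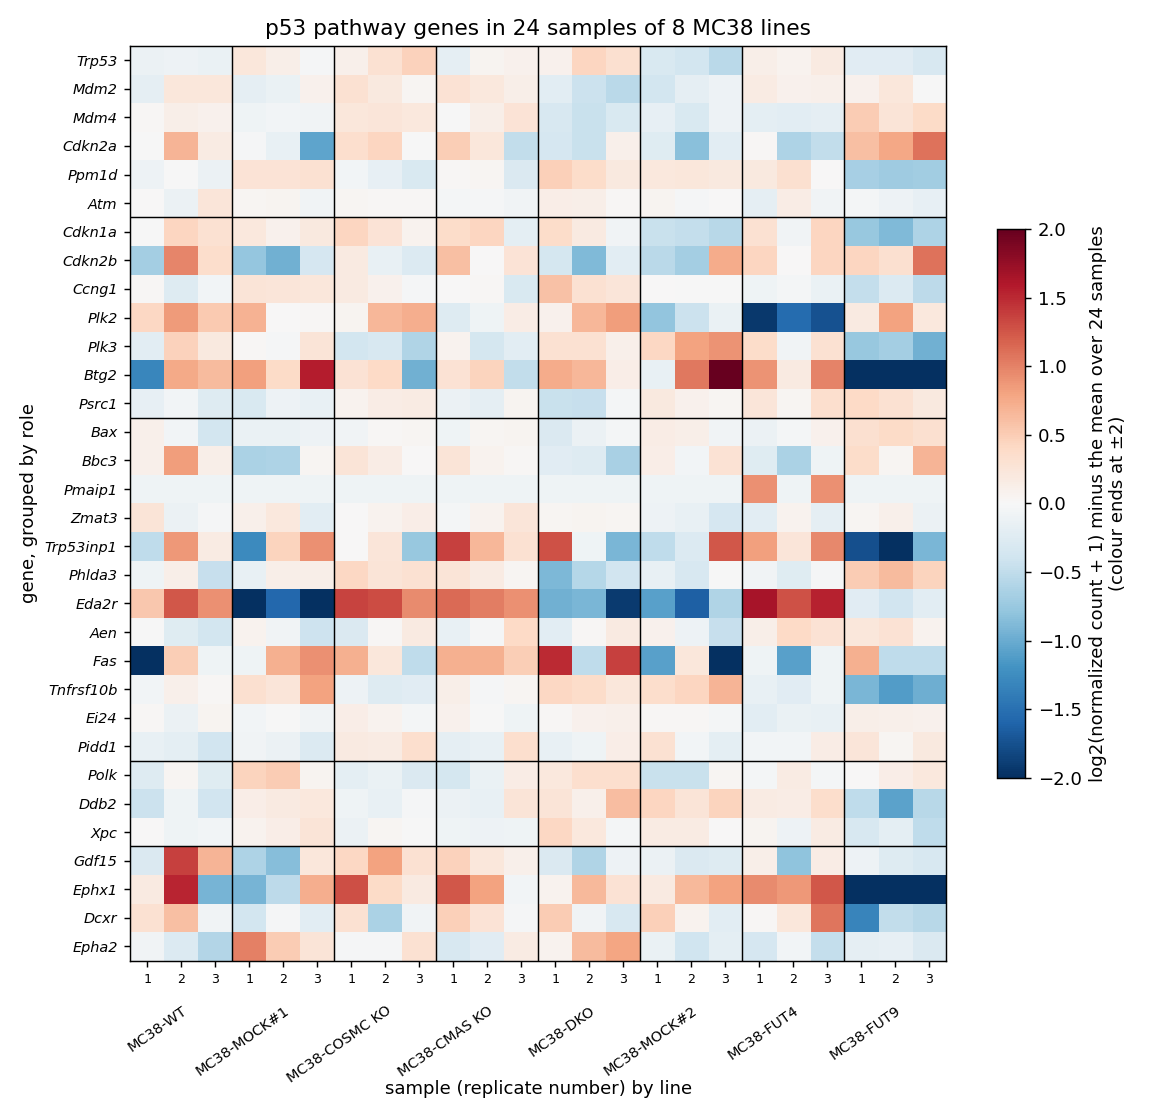
Heat map of the 32 p53 pathway genes (rows, grouped by role) in the 24 samples (columns, 3 per line). Colour is the log2 of the normalized count plus 1, minus the mean of that gene over the 24 samples, and ends at 2 in either direction. Eda2r is blue in all samples of MC38-MOCK#1, MC38-DKO and MC38-MOCK#2, and Btg2 and Ephx1 are at the blue end in the 3 samples of MC38-FUT9.

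Most of the pathway differed somewhere among the 8 lines. A limma F test across the 8 lines on log2 of the normalized count plus 1, with p adjusted over all genes tested, called 24 of the 31 members tested (77.4%) at an adjusted p below 0.05, where 40.8% of all 24847 genes tested were called. Among genes with a mean of at least 10 normalized counts, the test called 26 of 30 members (86.7%) and 67.7% of all genes. It called 22 members (71.0%) and 36.7% of all genes without the line labelled FUT4, the calls of Ei24 (adjusted p = 0.479) and Trp53inp1 (adjusted p = 0.0765) being lost, and 23 members without MC38-DKO. By role, 5 of 6 control genes, 6 of 7 cell cycle genes, 7 of the 11 cell death genes tested, 3 of 3 repair genes and 3 of 4 genes of signalling and metabolism were called. Not called were Atm, Cdkn2b, Aen, Fas, Pidd1, Zmat3 and Dcxr, with adjusted p from 0.058 (Cdkn2b) to 0.52 (Atm), and Pmaip1 was not tested. Of the 24 called, MC38-FUT9 had the lowest line mean for 10 and the highest for 7, and MC38-DKO the lowest for 5. The same count was not made over all genes, so it cannot be read as particular to the pathway. MC38-FUT9 against MC38-MOCK#2 also had the most genes called of the pairwise comparisons here, 5166 of 21480.

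**Figure D2:**
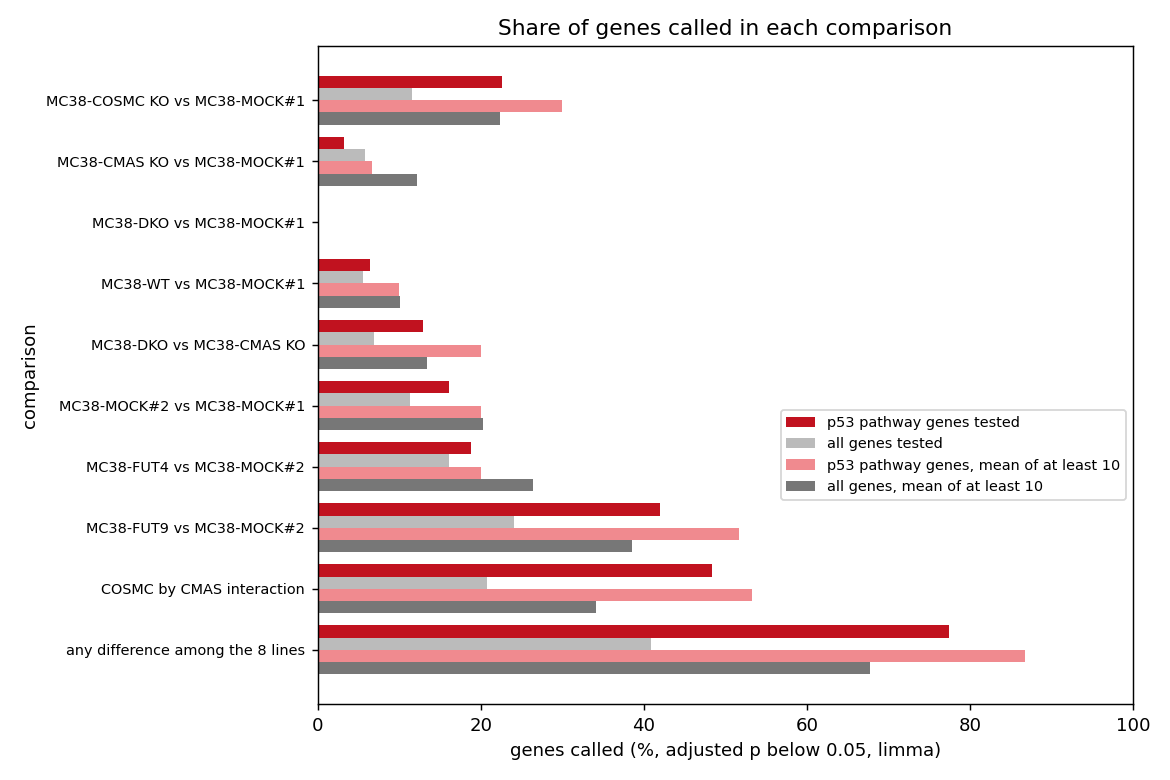
Bars show the percentage of genes called by limma (adjusted p below 0.05) in each comparison, for the p53 pathway genes and for all genes tested, and again for genes with a mean of at least 10 normalized counts. In MC38-FUT9 against MC38-MOCK#2 the bars stand at 41.9% and 24.1% for all genes tested and at 51.7% and 38.5% for the better expressed genes, and in MC38-DKO against MC38-MOCK#1 no pathway gene was called.

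Among the control genes, Trp53 (chr11:69580359-69591873, plus strand) was lowest in MC38-MOCK#2, at 1849, 1776 and 1573 normalized counts, and in MC38-FUT9, at 1966, 1956 and 1838. It counted 2119, 2149 and 2092 in MC38-WT, 2691, 2495 and 2262 in MC38-MOCK#1, 2017, 2381 and 2448 in MC38-CMAS KO, and 2479, 2411 and 2599 in the line labelled FUT4. The highest line means were those of MC38-COSMC KO (2455, 2821 and 3144) and MC38-DKO (2422, 3105 and 2861), whose samples overlapped with each other and with MC38-MOCK#1. The range of line means was 0.69 on the log2 scale (limma F test, adjusted p = 2.12e-05).

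Mdm2 (chr10:117688875-117710758, minus strand), both a target of p53 and its main ubiquitin ligase, was lowest in MC38-DKO, at 502, 433 and 400 normalized counts. It counted 715, 675 and 632 in MC38-CMAS KO, 722, 669 and 602 in MC38-COSMC KO, and 514, 533 and 620 in MC38-MOCK#1. The activation lines counted 451, 513 and 547 (MC38-MOCK#2), 657, 620 and 624 (labelled FUT4) and 623, 681 and 579 (MC38-FUT9), and MC38-WT 515, 684 and 681. MC38-DKO therefore lay below every sample of MC38-CMAS KO, MC38-COSMC KO and MC38-MOCK#1. The range of line means was 0.60 on the log2 scale (limma, adjusted p = 0.000885).

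Mdm4, the partner of Mdm2, ran from 1190 to 1313 normalized counts in MC38-DKO to 1950 to 2296 in MC38-FUT9. Its locus overlaps with that of Gm29257 on the opposite strand, which averaged 746 normalized counts. Whether their exons overlap was not tested. The library kit kept strand, but whether the counting used it is not given in the sources used here, and reads that met more than 1 gene were left out by the authors. Counting without strand would therefore leave the reads over any shared exons out of both genes. Gm29257 counted 996, 929 and 906 in MC38-FUT9 and 877, 955 and 389 in MC38-MOCK#2, which overlap, whereas the Mdm4 samples of these lines do not.

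Cdkn2a (chr4:89274471-89294653, minus strand), which encodes the Mdm2 antagonist Arf and the kinase inhibitor p16, counted 78, 88 and 109 in MC38-FUT9. In the other lines it counted 51, 82 and 57 (MC38-WT), 50, 46 and 24 (MC38-MOCK#1), 72, 60 and 36 (MC38-CMAS KO), 65, 69 and 51 (MC38-COSMC KO), 40, 37 and 55 (MC38-DKO), 43, 28 and 44 (MC38-MOCK#2), and 52, 33 and 36 (labelled FUT4). MC38-FUT9 overlapped with MC38-WT alone, through sample 2 of that line. The adjusted p over the 8 lines was 0.0114 (limma) and 0.0524 without sample 3 of MC38-FUT9.

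Ppm1d, the gene of the phosphatase Wip1 that removes activating phosphates from p53 and Atm, was the control gene with the tightest separation. It counted 232, 224 and 225 in MC38-FUT9 and at least 297 in the samples of the other 7 lines, with the highest line mean in MC38-DKO (508, 473 and 419). Atm, the kinase at the head of the response, stayed between 1097 and 1468 normalized counts in the 24 samples and was not called (range of line means 0.20 on the log2 scale, limma adjusted p = 0.52).

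In the cell cycle group, Cdkn1a (chr17:29090979-29100722, plus strand) fell into lower and higher lines. It counted 234, 215 and 258 in MC38-FUT9 and 292, 286 and 271 in MC38-MOCK#2. The other lines lay higher, at 394, 534 and 492 (MC38-WT), 459, 422 and 456 (MC38-MOCK#1), 510, 533 and 348 (MC38-CMAS KO), 532, 478 and 417 (MC38-COSMC KO), 514, 451 and 377 (MC38-DKO), and 488, 378 and 532 (labelled FUT4). No sample of MC38-FUT9 or MC38-MOCK#2 reached the lowest of these, 348. The range of line means was 1.01 on the log2 scale (limma, adjusted p = 2.25e-05).

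Btg2, an antiproliferative gene and direct p53 target (chr1:134075170-134079120), had one of the largest ranges of line means, 4.2 on the log2 scale. It counted 4, 3 and 10 in MC38-FUT9 and between 21 and 247 elsewhere, where it varied widely within lines, for example 48, 112 and 247 in MC38-MOCK#2. Plk2 and Plk3, polo-like kinases of the stress response, differed in different lines. Plk2 counted 188, 247 and 214 in the line labelled FUT4 and at least 413 in the others. Plk3 was lowest in MC38-FUT9 (253, 267 and 220) and highest in MC38-MOCK#2 (573, 750 and 798).

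In the cell death group, Eda2r, an X-linked receptor of the tumour necrosis factor receptor family (chrX:97333840-97377216), split the 8 lines most clearly. It counted 16, 22 and 13 in MC38-MOCK#1, 34, 35 and 17 in MC38-DKO, and 31, 21 and 44 in MC38-MOCK#2. It counted 98, 160 and 127 in MC38-WT, 149, 137 and 127 in MC38-CMAS KO, 172, 167 and 130 in MC38-COSMC KO, and 213, 163 and 197 in the line labelled FUT4. MC38-FUT9, at 57, 51 and 58, lay between these ranges without touching either. Both mock lines thus counted less Eda2r than the unmodified line, in every sample. The range of line means was 3.44 on the log2 scale (limma, adjusted p = 8.6e-10).

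Tnfrsf10b (chr14:69767472-69784411), the mouse receptor for the death ligand TRAIL, counted 260, 227 and 250 in MC38-FUT9. It lay between 413 and 461 in MC38-COSMC KO and the line labelled FUT4, between 472 and 533 in MC38-WT and MC38-CMAS KO, and between 577 and 858 in MC38-MOCK#1, MC38-DKO and MC38-MOCK#2. These ranges did not overlap. Phlda3, which restrains Akt signalling, ran the other way, with 262, 286 and 252 in MC38-FUT9 and 99, 124 and 141 in MC38-DKO. Trp53inp1, which favours p53-dependent death, was sparse throughout (2 to 43 normalized counts), and its call over the 8 lines (limma, adjusted p = 0.047) was lost in 13 of 24 fits that each left out 1 sample.

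Of the repair genes, Ddb2, which recognises ultraviolet lesions in DNA, counted 125, 85 and 121 in MC38-FUT9 and 240, 214 and 243 in MC38-MOCK#2, with 133, 168 and 137 in MC38-WT. Its locus overlaps on the opposite strand with Acp2, which counted 361, 359 and 384 in MC38-FUT9 and 386, 373 and 455 in MC38-MOCK#2. Whether the exons of Ddb2 and Acp2 overlap was not tested. Xpc, another lesion sensor, and Polk, a translesion polymerase, varied less, by 0.53 and 0.62 on the log2 scale. In the last group, Ephx1, a detoxifying epoxide hydrolase (chr1:180976210-181020904), counted 0, 0 and 1 in MC38-FUT9 and 5 to 32 elsewhere.

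**Figure D3:**
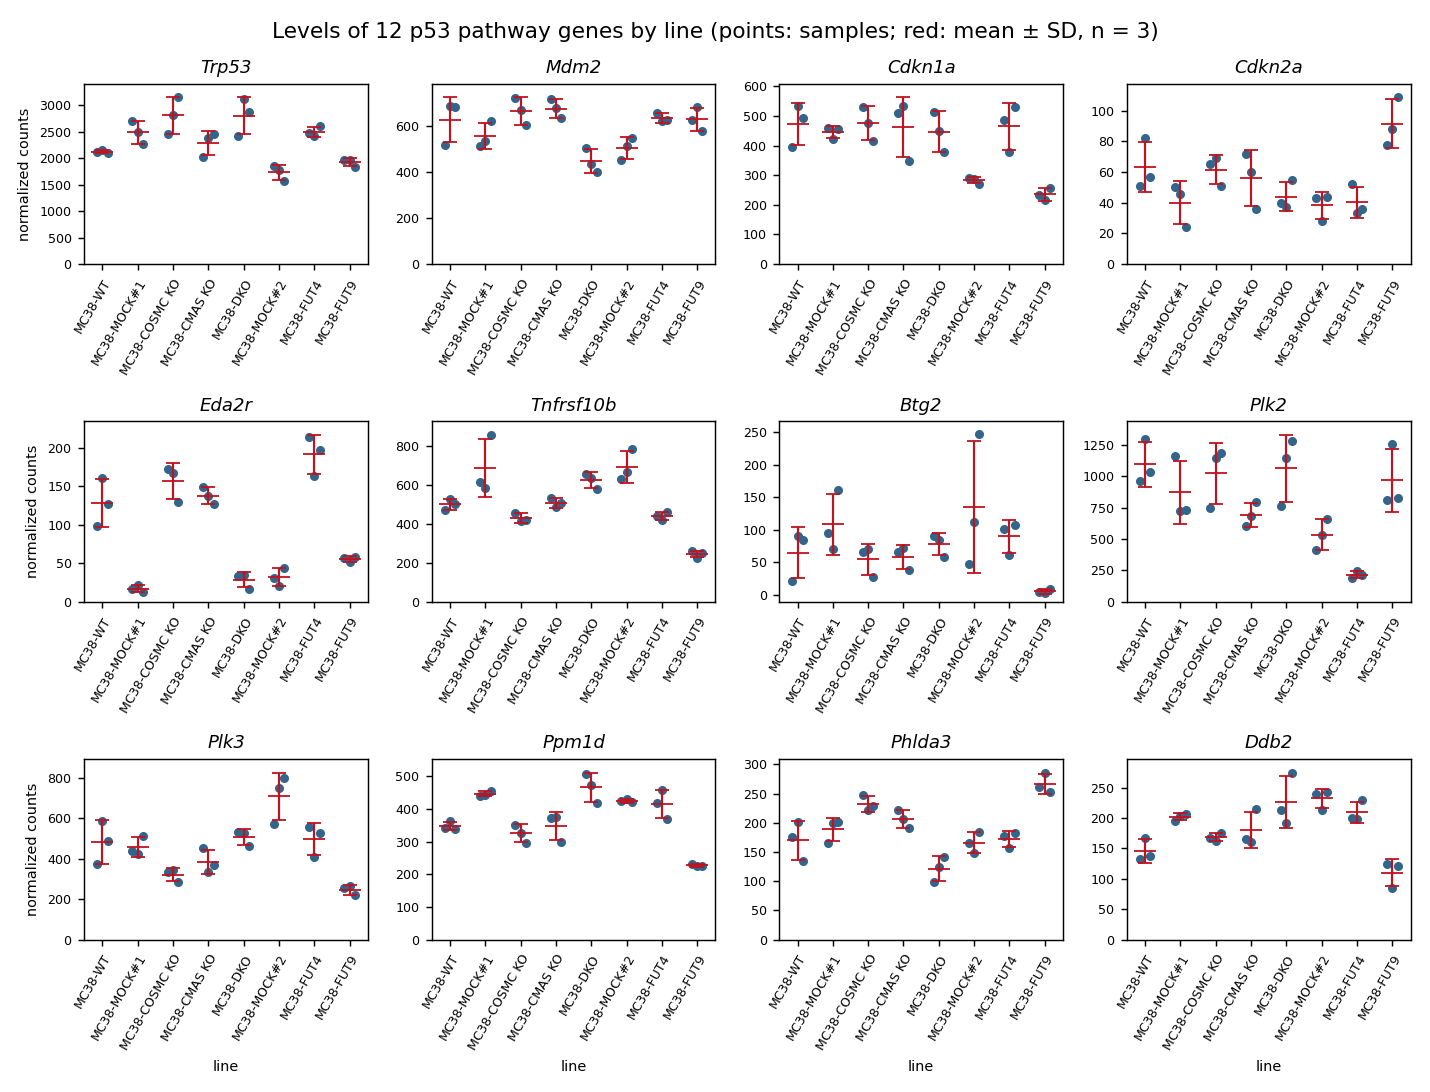
Normalized counts of 12 p53 pathway genes in each line. Points are samples, and the red marks are the mean and SD of 3 samples. Eda2r is at 44 or less in MC38-MOCK#1, MC38-DKO and MC38-MOCK#2, Plk2 is lowest in the line labelled FUT4, and Tnfrsf10b, Btg2, Plk3, Ppm1d and Ddb2 have their lowest mean in MC38-FUT9.

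MC38-FUT9 against MC38-MOCK#2 compared the Fut9 activation line with its control, and it held more called pathway genes than any other pairwise comparison here. Each side is 1 line, so line and activation cannot be told apart, here or for the line labelled FUT4. Of 31 members tested, 5 rose and 8 fell (41.9% called), where 24.1% of the 21480 genes tested were called, 12.1% higher and 12% lower. Among genes with a mean of at least 10, 15 of 29 members (51.7%) and 38.5% of genes were called. By role, 3 control genes, 4 cell cycle genes, 3 cell death genes, 2 repair genes and 1 gene of the last group changed, with both directions among the control, cell cycle and cell death genes. The median log2 fold change of the members was 0.14, and that of all genes tested was 0.01. With all libraries rescaled to the same total, which turned the split over all genes from 2596 higher and 2570 lower to 1979 higher and 3237 lower, the members split into 4 higher and 9 lower.

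Both a cell cycle gene and a death receptor were among the strongest falls. Tnfrsf10b went from 630, 665 and 785 normalized counts in MC38-MOCK#2 to 260, 227 and 250, a log2 fold change of -1.49 ± 0.10 (SE, limma adjusted p = 0.000339, n = 3 samples per line). Plk3 changed by -1.51 ± 0.14 (adjusted p = 0.000814) and Ppm1d by -0.90 ± 0.07 (adjusted p = 0.000418), each without overlap between the lines. Ppm1d counted 424, 430 and 420 in MC38-MOCK#2 and so differed by far more than either line varied.

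Btg2 changed by -4.20 ± 0.64 on the log2 scale (limma adjusted p = 0.0047), from 48, 112 and 247 normalized counts to 4, 3 and 10. Ephx1 counted 12, 17 and 19 in MC38-MOCK#2 and 1 in all 3 samples of MC38-FUT9 together, a ratio of 48.0 with an exact 95% interval from 8.21 to 1935 that treats the normalized counts as reads and covers counting error only. On the log2 scale with the pseudocount Ephx1 changed by -3.73 ± 0.42 (adjusted p = 0.00153). Ddb2 changed by -1.09 ± 0.16 (adjusted p = 0.0045). The 2 remaining falls were smaller, namely Ccng1, the gene of cyclin G1, by -0.43 ± 0.08 (adjusted p = 0.0101) and Xpc by -0.45 ± 0.11 (adjusted p = 0.0234).

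The 5 rises were led by Cdkn2a, from 43, 28 and 44 to 78, 88 and 109 normalized counts, a log2 fold change of 1.25 ± 0.23 (limma adjusted p = 0.00945). Plk2 rose by 0.85 ± 0.22 (adjusted p = 0.0329), Phlda3 by 0.68 ± 0.11 (adjusted p = 0.00568) and Mdm4 by 0.58 ± 0.09 (adjusted p = 0.00426). Phlda3 went from 166, 148 and 184 to 262, 286 and 252 normalized counts. Bax rose by 0.28 ± 0.08 (adjusted p = 0.0419), a call that was lost with rescaled totals. The calls of Bax and Plk2 were each lost in 5 of 6 fits that left out 1 sample, that of Xpc in 4, that of Cdkn2a without sample 2 or sample 3 of MC38-FUT9, and that of Ccng1 without its sample 1.

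Several core genes did not pass the test in this comparison. Trp53 had a log2 fold change of 0.15 ± 0.08 (limma adjusted p = 0.219), Mdm2 of 0.32 ± 0.10 (adjusted p = 0.058) and Cdkn1a of -0.27 ± 0.09 (adjusted p = 0.0876). The 3 Cdkn1a samples of MC38-FUT9 nevertheless all lay below those of MC38-MOCK#2, and the 3 Mdm2 samples all above. Trp53inp1 had a log2 fold change of -1.88 ± 0.61 (adjusted p = 0.0656) at 8 or fewer normalized counts in MC38-FUT9.

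**Figure D4:**
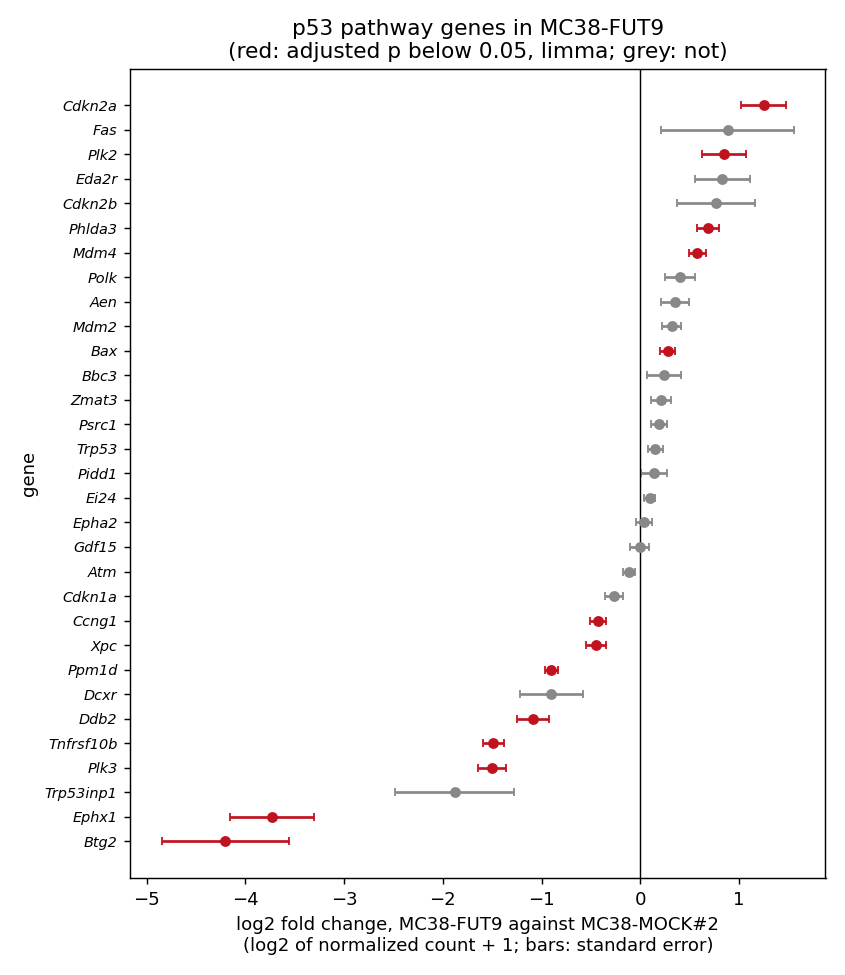
Log2 fold changes of the 31 members tested in MC38-FUT9 against MC38-MOCK#2, with bars of 1 standard error. Red points passed the test (limma, adjusted p below 0.05). The 8 red points left of 0 reach -4.20 for Btg2, and the 5 right of 0 reach 1.25 for Cdkn2a.

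The line labelled FUT4 was compared with the same control. All 32 members were tested, 4 rose and 2 fell (18.8%), and 16.1% of all genes tested were called (8.1% higher and 8.04% lower), so the share was close to that of all genes. Among genes with a mean of at least 10 it was 20.0% of the members and 26.4% of genes. Eda2r rose from 31, 21 and 44 to 213, 163 and 197 normalized counts, a log2 fold change of 2.59 ± 0.27 (limma adjusted p = 0.00157). In MC38-FUT9 against the same MC38-MOCK#2 samples its log2 fold change did not pass the test, and the difference between the lines was not tested.

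Trp53 rose by 0.53 ± 0.08 (limma adjusted p = 0.00535), Cdkn1a by 0.70 ± 0.13 (adjusted p = 0.0137) and Mdm2 by 0.33 ± 0.09 (adjusted p = 0.0447), each without overlap with MC38-MOCK#2. The Trp53 and Cdkn1a levels of the line labelled FUT4 overlapped with those of MC38-MOCK#1, and MC38-MOCK#2 was the lower of the mock lines for both. Plk2 changed by -1.28 ± 0.18 (adjusted p = 0.00485), from 413, 530 and 657 to 188, 247 and 214 normalized counts. Tnfrsf10b changed by -0.65 ± 0.10 (adjusted p = 0.00606). The Mdm2 call was lost with rescaled totals and, like the Cdkn1a call, in 5 of 6 fits without 1 sample, and the Plk2 call without sample 3 of the line labelled FUT4.

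The 2 mock lines were compared with each other because they are the baselines of the other comparisons. MC38-MOCK#2 differed from MC38-MOCK#1 in 5 of 31 members (16.1%), 1 higher and 4 lower, where 11.3% of all genes were called, 5.3% higher and 6.02% lower. Among genes with a mean of at least 10 the shares were 20.0% and 20.3%. Cdkn1a changed by -0.65 ± 0.08 on the log2 scale (limma adjusted p = 0.00457) and Trp53 by -0.52 ± 0.09 (adjusted p = 0.017). Epha2, a receptor tyrosine kinase gene, changed by -0.84 ± 0.19 (adjusted p = 0.0345), from 1937, 1371 and 1153 to 875, 733 and 838 normalized counts. Ccng1 changed by -0.24 ± 0.06 (adjusted p = 0.0373), and Plk3 rose by 0.62 ± 0.14 (adjusted p = 0.0391). The call of Cdkn1a held in each fit without 1 sample, and those of the other 4 were lost in 3 to 5 of 6. With the passage number as a term, 0 of 31 members and 583 of 21667 genes were called. Cdkn1a was then at -0.59 on the log2 scale (adjusted p = 0.0568), Trp53 at -0.28 (adjusted p = 0.118), Epha2 at -0.43 (adjusted p = 0.334), Plk3 at 0.26 (adjusted p = 0.351) and Ccng1 at -0.23 (adjusted p = 0.172).

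MC38-COSMC KO against MC38-MOCK#1 compared the C1galt1c1 knockout line with its control. Of 31 members, 3 rose and 4 fell (22.6%), where 11.6% of all genes were called, 6.17% higher and 5.39% lower. Among genes with a mean of at least 10, 9 of 30 members (30.0%) and 22.3% of genes were called. The largest change was in Eda2r, from 16, 22 and 13 to 172, 167 and 130 normalized counts, a log2 fold change of 3.15 ± 0.23 (limma adjusted p = 0.000762). Mdm4 rose by 0.30 ± 0.05 (adjusted p = 0.00822), from 1535, 1558 and 1542 to 1901, 1913 and 1888. Pidd1, a death domain gene that acts with caspase-2, rose by 0.38 ± 0.09 (adjusted p = 0.0319).

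The 4 falls in MC38-COSMC KO were in Tnfrsf10b, by -0.65 ± 0.14 on the log2 scale (limma adjusted p = 0.0289), Polk by -0.54 ± 0.13 (adjusted p = 0.0434), Plk3 by -0.51 ± 0.11 (adjusted p = 0.0273) and Ppm1d by -0.46 ± 0.08 (adjusted p = 0.0151). Tnfrsf10b went from 617, 585 and 858 to 457, 413 and 420 normalized counts. Trp53 (0.17 ± 0.10, adjusted p = 0.334), Mdm2 (0.26 ± 0.10, adjusted p = 0.151) and Cdkn1a (0.09 ± 0.10, adjusted p = 0.652) did not pass the test. The calls of Eda2r and Mdm4 held in each fit without 1 sample, those of Pidd1 and Plk3 were lost in 6 of 6, those of Polk and Tnfrsf10b in 5 and that of Ppm1d in 3, and eBayes without a trend lost those of all but Eda2r. The sample number, which in these lines is also the passage, was also fitted as a replicate block. With it 0 of the 7 and 4 of all 22172 genes were called, and the adjusted p of Eda2r was 0.0771. Over all genes, rescaled totals moved the split from 1367 higher and 1196 lower to 1125 higher and 1746 lower, with the members still at 3 and 4.

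MC38-CMAS KO and MC38-WT were set against the same MC38-MOCK#1 samples, so these comparisons and that of MC38-COSMC KO are not independent. In MC38-CMAS KO 1 of 31 members was called (3.23%, with 5.76% of all genes, and 6.67% against 12.1% among genes with a mean of at least 10), namely Eda2r, with a log2 fold change of 2.97 ± 0.22 (limma adjusted p = 0.00171). In MC38-WT 2 of 31 were called (6.45%, with 5.51% of all genes, and 10.0% against 10.1% among genes with a mean of at least 10). These were Eda2r, at 2.85 ± 0.28 (adjusted p = 0.00357), and Ppm1d, at -0.36 ± 0.08 (adjusted p = 0.0493). Eda2r in MC38-WT was no longer called in 3 of 6 fits without 1 sample, and Ppm1d in all 6. With the passage number as a term neither was called in MC38-WT, where Eda2r was at 2.78 on the log2 scale (adjusted p = 0.38) and 4 of all 21621 genes were called. MC38-WT and MC38-MOCK#1 shared no passage, so this fit separates passage from line only weakly. In MC38-CMAS KO Eda2r was not called with the replicate block (adjusted p = 0.107), which called 1 of all 22024 genes. In all 3 comparisons the Eda2r samples of MC38-MOCK#1, at 22 or less, lay below those of the other line, at 98 or more.

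In MC38-DKO against MC38-MOCK#1 limma called 0 of 31 members, with 20 of all 21738 genes (0.092%, or 0.148% of those with a mean of at least 10) called. At an unadjusted p below 0.05 it counted 3 members, Mdm2 (log2 fold change -0.32), Mdm4 (-0.29) and Phlda3 (-0.64). At that threshold it counted 1632 of all 21738 genes, and 1131 of the 13483 with a mean of at least 10. Eda2r was at 34, 35 and 17 against 16, 22 and 13. MC38-DKO against MC38-CMAS KO addressed the C1galt1c1 target on top of the Cmas knockout, and 4 of 31 members fell (12.9%, with 6.93% of all genes called and 3.78% called lower, and 20.0% against 13.4% among genes with a mean of at least 10). Eda2r changed by -2.29 ± 0.28 on the log2 scale (limma adjusted p = 0.00363), Phlda3 by -0.77 ± 0.15 (adjusted p = 0.0242), Mdm2 by -0.60 ± 0.10 (adjusted p = 0.0144) and Mdm4 by -0.49 ± 0.09 (adjusted p = 0.0168). Phlda3 went from 221, 207 and 191 to 99, 124 and 141 normalized counts. Of these calls, Eda2r was lost in 3 of 6 fits without 1 sample, Mdm2 in 5 and Mdm4 and Phlda3 in 6.

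The COSMC target was then compared between backgrounds, as the difference between its log2 fold change without the Cmas knockout (MC38-COSMC KO against MC38-MOCK#1) and with it (MC38-DKO against MC38-CMAS KO). The limma interaction term called 15 of 31 members (48.4%, 8 above 0 and 7 below), where 20.8% of all 22606 genes were called, with 10.4% on either side, and 16 of 30 (53.3%) against 34.1% among genes with a mean of at least 10. The 15 called members all had opposite signs in the 2 backgrounds, as did 26 of the 31 members tested. Opposite signs were common over all genes too. They were found in 97.5% of those called, 61.0% of those tested and 71% of those with a mean of at least 10. Against MC38-MOCK#1, 20 of 21738 genes were called in MC38-DKO, 2563 of 22172 in MC38-COSMC KO and 1268 of 22024 in MC38-CMAS KO. The part of this in the interaction calls was not tested. Mdm2 and Mdm4 both belonged to the 15 called members, at 0.86 ± 0.15 (adjusted p = 0.000954) and 0.79 ± 0.10 (adjusted p = 9.15e-05). So did the death genes Eda2r, at 5.44 ± 0.38 (adjusted p = 5.71e-07), Phlda3, at 1.07 ± 0.19 (adjusted p = 0.00129), and Bbc3, the gene of the BH3-only protein Puma, at 1.03 ± 0.24 (adjusted p = 0.00784).

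Below 0 lay Tnfrsf10b, at -0.95 ± 0.17 (limma adjusted p = 0.00138), and Ppm1d, at -0.88 ± 0.15 (adjusted p = 0.000912). Tnfrsf10b counted 617, 585 and 858 in MC38-MOCK#1 and 657, 638 and 577 in MC38-DKO, and less in both single knockouts, at 457, 413 and 420 and at 533, 485 and 507. Trp53 (-0.12 ± 0.16, adjusted p = 0.689) and Cdkn1a (0.13 ± 0.22, adjusted p = 0.763) did not pass. Each of the 4 genotypes is 1 line, so line and genotype cannot be told apart, and C1galt1c1 RNA did not separate MC38-DKO from MC38-CMAS KO.

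**Figure D5:**
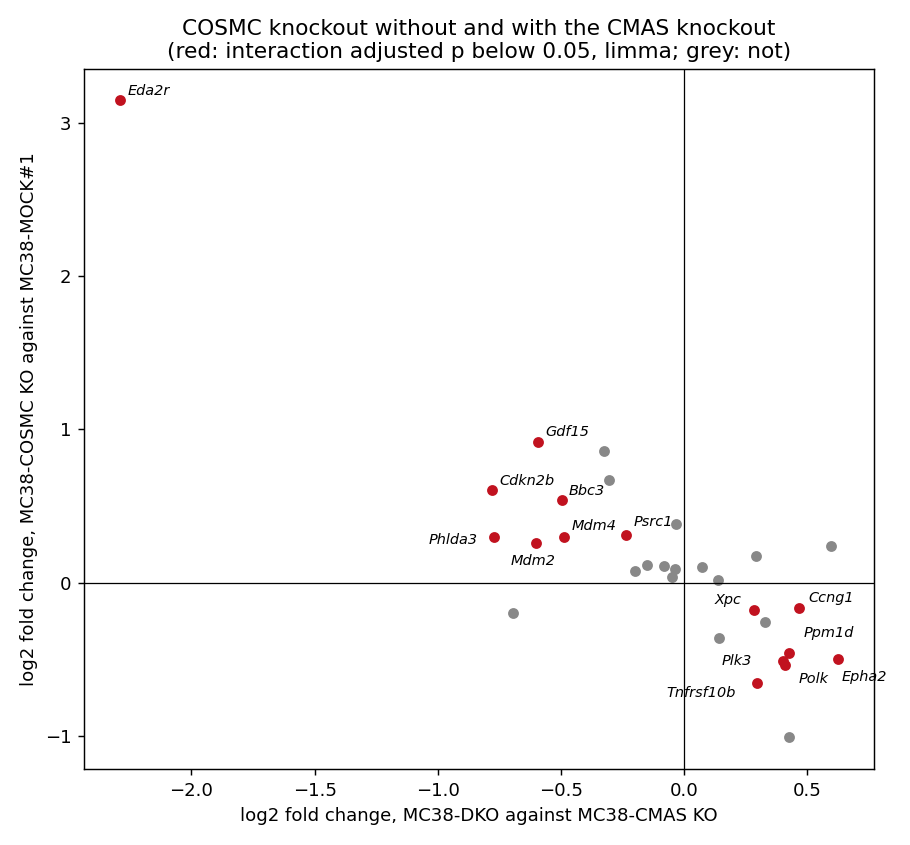
Log2 fold change of each of 31 members for MC38-COSMC KO against MC38-MOCK#1 (vertical axis) and for MC38-DKO against MC38-CMAS KO (horizontal axis). Red points are the 15 members whose difference between the axes passed the limma interaction test, and all of them lie in the upper left or lower right quadrant, with Eda2r at 3.15 and -2.29.

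Other genes of the pathway were counted by list. Of 30 further p53 targets, 28 were tested across the 8 lines and 20 called (71.4%), beside the 40.8% of all genes tested and 67.7% of those with a mean of at least 10 given above, against which the other lists counted across the 8 lines are also to be read. Without the line labelled FUT4, 18 of the 28 were called (64.3%), with 36.7% of all genes. Thbs1, an angiogenesis inhibitor, had the largest range of line means among them (8.57 on the log2 scale), from 2, 2 and 2 normalized counts in MC38-FUT9 to 1256, 969 and 1225 in the line labelled FUT4. Sesn1, the gene of a stress-induced sestrin, had a range of 1.37 and counted 606, 737 and 786 in MC38-MOCK#2 against 279, 254 and 282 in MC38-FUT9. In MC38-FUT9 against MC38-MOCK#2, 4 of 26 further targets rose and 9 fell (limma, 50%). There 24.1% of all genes were called, 12.1% higher and 12% lower, and 38.5% of those with a mean of at least 10.

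Of 11 upstream damage sensors and kinases, 6 were called across the 8 lines (54.5%) and again 6 without the line labelled FUT4. For all genes the shares were 40.8% and 36.7%, and across the 8 lines 67.7% of those with a mean of at least 10. The called sensors were led by Hipk2 (range of line means 1.68 on the log2 scale) and Rad50 (1.04). Rad50, a subunit of the complex that holds broken DNA ends, counted 2387, 2219 and 1919 in MC38-MOCK#1 and 2368, 2347 and 2136 in MC38-DKO, and at most 1647 in the samples of the other 6 lines. Of 12 other regulators and family members, 10 were called (83.3%), led by Trp63, which never exceeded 11 normalized counts, and 6 (50%) without the line labelled FUT4. Of 10 G2/M genes known to be lowered through p21, 7 were called (70.0%, and 7 without the line labelled FUT4), with ranges of at most 0.67 on the log2 scale (Cdc25c). In MC38-FUT9 against MC38-MOCK#2, 3 of these 10 fell (30.0%) and none rose. There 12% of all genes were called lower, and 2518 of the 13315 with a mean of at least 10. In MC38-MOCK#2 against MC38-MOCK#1, 11.3% of all genes were called and 20.3% of those with a mean of at least 10. Cdkn1a fell there without a passage term, and limma called 0 of the 10 G2/M genes, with 2 at an unadjusted p below 0.05. Of all 21667 genes, 5711 were at an unadjusted p below 0.05 there, and 4677 of the 13447 with a mean of at least 10.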

How the data were processed

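The authors trimmed the reads with Sickle, aligned them to GRCm38 with HISAT2 2.0.4, counted them per gene with featureCounts of Subread 1.5.0-p3 and adjusted them for library size and TMM with edgeR 3.18.1. The deposited table holds the scaled counts rounded to whole numbers, so the unit is a score rather than raw counts, and count models were not used. The reads per library behind each value are not given, and 1 normalized count is about but not exactly 1 read.

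Lines were compared with lmFit and trended eBayes of limma 3.58.1 (R 4.3.3) on log2(normalized count + 1), with p adjusted over all genes (Benjamini-Hochberg) and a gene called at an adjusted p below 0.05. Pairwise fits used the 6 samples of both lines and left out genes with more than 4 zeros. The fits over 8 lines and of the interaction needed 3 samples above 0. The scripts were tested on simulated data. Promoter windows came from RefSeq (GRCm38.p6). Python 3.11.15, pandas 2.3.3, numpy 2.4.6, scipy 1.17.1 and matplotlib 3.10.9 made the other tables and plots.

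The 32 members and all gene lists were chosen with earlier results of these data known. Values by sample were given for Trp53, Mdm2, Cdkn1a and Cdkn2a and for the 10 other members with the largest range of line means among those called over the 8 lines. Any further member called in a pair of lines was named with its fold change, and from each other list at most 3 genes, of which 1 is not reported here. Values of other members or genes given beside a result were chosen after they were seen.

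The alternatives were a pseudocount of 5, a minimum mean of 10, totals rescaled to be equal, eBayes without a trend, all 8 lines in a single fit, the replicate number as a block, and leaving out each sample in turn. The fits over 7 lines, the passage number as a term and a threshold on fold change were added after seeing the data. Samples 1 and 3 of the line labelled FUT4, both passage 7, differed least of the 24 pairs within lines, with a chi-square per gene of 5.22 on normalized counts against 8.09 to 42.2 in the others. Whether they are separate harvests is not known. They were counted separately because their difference exceeded counting noise, and the left-out fits give the counts without either.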

Additional observations from a re-analysis of the deposited data

Results flagged for a closer look

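For 15 p53 pathway genes the log2 fold change of the COSMC target differed between the background without and with the Cmas knockout by the limma interaction test, with n = 3 samples in each of the 4 lines. That test called 48.4% of the members tested, 20.8% of all 22606 genes and 34.1% of those with a mean of at least 10. The signs in the backgrounds were opposite for all 15 and for 26 of the 31 members tested. Over all genes they were opposite for 97.5% of those called by that test and 61% of those tested. Among genes with a mean of at least 10 the share was 71%. The difference (fold change without minus with the Cmas knockout, log2 scale) was positive for Eda2r at 5.44, Gdf15 at 1.51, Cdkn2b at 1.38, Phlda3 at 1.07, Bbc3 at 1.03, Mdm2 at 0.86, Mdm4 at 0.79 and Psrc1 at 0.55. It was negative for Epha2 at -1.12, Tnfrsf10b at -0.95, Polk at -0.95, Plk3 at -0.92, Ppm1d at -0.88, Ccng1 at -0.63 and Xpc at -0.46. Gdf15, the gene of a stress cytokine, counted 383, 505 and 356 in MC38-COSMC KO and 188, 159 and 337 in MC38-MOCK#1, against 235, 190 and 268 in MC38-DKO and 396, 336 and 309 in MC38-CMAS KO. Cdkn2b, the gene of the kinase inhibitor p15, counted 118, 94 and 86 against 61, 53 and 83, and 82, 56 and 90 against 160, 105 and 127 in the same order. Of the 15 calls, those of Psrc1 and Xpc were lost in 6 and 11 of 12 fits without 1 sample, and those of Epha2, Psrc1 and Xpc with eBayes without a trend. Of 5 mesenchymal marker genes, the same interaction term was above 0 for all 5 and called for 4. It was called above 0 for 10.4% of all genes, and for 2266 of the 13532 with a mean of at least 10. The part of these markers in the result was not tested. The summed normalized counts of 6 epithelial markers were 7 or fewer per sample in these 4 lines.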

How the results depend on the processing

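No named call changed direction under any alternative run. Of 38 pairwise calls, 15 were kept in each fit that left out 1 sample, 14 in each other setting and 10 in both, and of the 24 calls over the 8 lines 20 and of the 15 interaction calls 12 were kept in both. The pseudocount of 5 lost 1 call. Rounding and unknown read depth limit what can be said of Fas, Trp53inp1, Ephx1 and Pmaip1.

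The number of members called moved as follows. The number of all genes called in the same fit is in brackets, of 21480 to 22172 tested unless stated. The passage number as a term, a choice made after seeing the data, took MC38-MOCK#2 from 5 (2454) to 0 (583) and MC38-WT from 2 (1192) to 0 (4). For MC38-COSMC KO against MC38-MOCK#1 it was 7 (2563), and 1 (1135) with eBayes without a trend and 0 (4) with the replicate block. For MC38-CMAS KO it was 1 (1268), and 2 (1634 of 13504 tested) with a minimum mean of 10. It was 0 (1) with the block and 5 (2207) in a single fit of the 8 lines. For MC38-WT it was 2 (1192), and 1 (717) without a trend, 0 (0) with the block and 9 (2981) in the single fit. For MC38-DKO against MC38-MOCK#1 it was 0 (20), and 1 (159) in the single fit. For MC38-DKO against MC38-CMAS KO it was 4 (1515), and 1 (692) without a trend, 2 (795) with the block and 7 (2403) in the single fit. For MC38-MOCK#2 it was 5 (2454), and 1 (1389) without a trend and 3 (2168) with the block. For the line labelled FUT4 it was 6 (3509), and 3 (1756) with the block. For MC38-FUT9 it was 13 (5166), and 6 with a log2 fold change beyond 1 also asked for, a count not made over all genes. The block takes degrees of freedom from fits of 6 samples, and otherwise the cause was not tested.

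Left out 1 sample at a time, the counts ranged from 2 to 7 (MC38-COSMC KO), 1 to 3 (MC38-CMAS KO), 0 to 0 (MC38-DKO against MC38-MOCK#1), 0 to 1 (MC38-WT), 0 to 2 (MC38-DKO against MC38-CMAS KO), 1 to 5 (MC38-MOCK#2), 3 to 7 (labelled FUT4), 9 to 16 (MC38-FUT9), 21 to 25 (8 lines) and 13 to 16 (interaction).

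Replicate numbers did not pair the samples in general. Over 13515 genes, deviations of same-numbered samples from their line means correlated by -0.31 to 0.25 (median 0.01, 84 pairs of lines and numbers). In no comparison were all 3 above 0.1. All 3 were above 0 in MC38-MOCK#2 against MC38-MOCK#1 (0.16, 0.08 and 0.25) and MC38-FUT9 against MC38-MOCK#2 (0.09, 0.19 and 0.19). The same held for MC38-DKO against MC38-CMAS KO (0.14, 0.06 and 0.18). In these the block raised the genes at an unadjusted p below 0.05, from 5711 to 6509, 7516 to 7996 and 4688 to 5547. The cause was not tested. The replicate block lost 23 of 77 named calls, 4 of the pairwise ones lost in the block but in no other such setting.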
